A study of Mus musculus with 12 samples.

Results

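The transcripts of 10 genes of glycolysis and of the response to low oxygen were followed in gonadal white adipose tissue (GWAT) of mice that lack HOIP in adipocytes. The genes were taken by symbol, Hif1a, Slc2a1, Hk1, Hk2, Hk3, Pfkfb3, Pkm, Ldha, Pdk1 and Bnip3, and all 10 were found among the 55281 genes of the table and passed the filter on low counts. HoipA-KO mice carried Hoip (Rnf31) flox flox alleles and an Adiponectin Cre transgene (AdipoQ.Cre), which is active in mature adipocytes, and the WT controls were littermates with the floxed alleles and no Cre. Male mice of both genotypes started at 6 weeks of age on a control diet (CD) with 14% fat or a high-fat diet (HFD) with 60% fat and stayed on it for 16 weeks, so that the tissue came from mice of 22 to 24 weeks. Each of the 4 groups had 3 libraries, and the tissue of 3 mice was pooled in each library, so that a library stands for a pool and not for 1 animal.

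Glycolysis splits glucose into pyruvate in the cytosol. Glucose enters through carriers such as GLUT1, is trapped by hexokinases, and is committed to the pathway by phosphofructokinase, which the product of PFKFB enzymes activates. Pyruvate then either becomes lactate through lactate dehydrogenase or enters mitochondria, where pyruvate dehydrogenase kinases hold back its oxidation. When oxygen is short, the transcription factor HIF-1α, encoded by Hif1a, is no longer degraded and raises transcription of many genes of this route together with genes such as Bnip3. HIF-1α is regulated mainly as a protein, so its transcript does not report its activity. In fat, growing adipocytes and the macrophages that gather around dying adipocytes both use this route.

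The set did not move as a block. In HoipA-KO against WT mice on CD, 3 members were higher (Hk3, Pkm and Slc2a1) and 3 were lower (Hk2, Pfkfb3 and Bnip3) past an adjusted p of 0.05, while 18.9% of all 18427 genes tested were higher and 18.8% were lower. On HFD, Pkm was higher, against 4.2% of all genes, and Hk2, Pfkfb3 and Bnip3 were lower, against 7.62% of all genes. In WT mice HFD raised Hk3 alone among the members, against 9.35% of all genes higher and 5.47% lower. In HoipA-KO mice no member was called between the diets and neither was any other gene (0.0% of all genes). Ldha, Hif1a, Hk1 and Pdk1 were not called in any of these comparisons over 11 libraries. Adjusted p-values come from the quasi-likelihood test of edgeR, adjusted across the genes tested by the method of Benjamini and Hochberg. Levels are counts scaled to a common library total (CPM) and normalized over all 12 libraries. Fold changes are on the log2 scale with the standard error of the fit. A lack of overlap between groups is given below as a description. The share of all genes without overlap is not given, and on HFD the uncalled Hif1a, Hk1 and Ldha did not overlap either.

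Fits used 11 libraries, without WT CD replicate 3, which the authors' deposited comparisons also leave out, and values over all 12 are given where they change a call of a gene named here. A fit that also leaves out WT CD replicate 1 or 2 has 1 WT CD library as its whole control arm, which is then assumed to vary like the other groups. WT CD replicate 3 held 11192.5 CPM summed over 9 markers of testis germ cells, against 18.9 and 396 CPM in the other WT CD libraries and at most 3.21 CPM elsewhere. WT CD replicate 2 held 14985.5 CPM of 5 markers of epididymal epithelium and HoipA-KO HFD replicate 1 held 1311 CPM, against at most 79.1 CPM in the other libraries. Libraries held 30513500 to 60540260 estimated counts, so that 3 counts correspond to 0.0533 to 0.0996 CPM, and every value of a member lay above that. The 10 adipocyte markers summed to 18986 to 65196 CPM in the WT CD libraries, 31732 to 40058 in WT HFD, 14464 to 14716 in HoipA-KO CD and 12134 to 14683 in HoipA-KO HFD. The 9 macrophage markers summed to 473 to 719 CPM in WT CD, 2025 to 5955 in WT HFD, 9529 to 12736 in HoipA-KO CD and 7420 to 11514 in HoipA-KO HFD, and none of the 9 was at 0 in any library. On CD 9 of 10 adipocyte markers were lower in HoipA-KO and 9 of 9 macrophage markers higher, on HFD 9 of 10 and 3 of 9 (8 and 0 over 12 libraries), and HFD raised 9 of 9 macrophage markers in WT. The shares of all genes called in these comparisons over 11 libraries are given above. Over 12 libraries 2.78% of all genes were called between the genotypes on HFD. Neutrophil markers summed to 4.25 to 86.0 CPM, endothelial markers to 348 to 1056 and skeletal muscle markers to 5.49 to 149.9, with the neutrophil and muscle maxima both in HoipA-KO HFD replicate 1. In whole tissue, fewer cells of a type and less RNA per cell cannot be told apart. Rnf31, the floxed gene, had 17.7 to 22.5 CPM in HoipA-KO and 12.8 to 21.2 in WT libraries, and its count over the whole gene in whole tissue does not check the deletion.

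**Figure D1:**
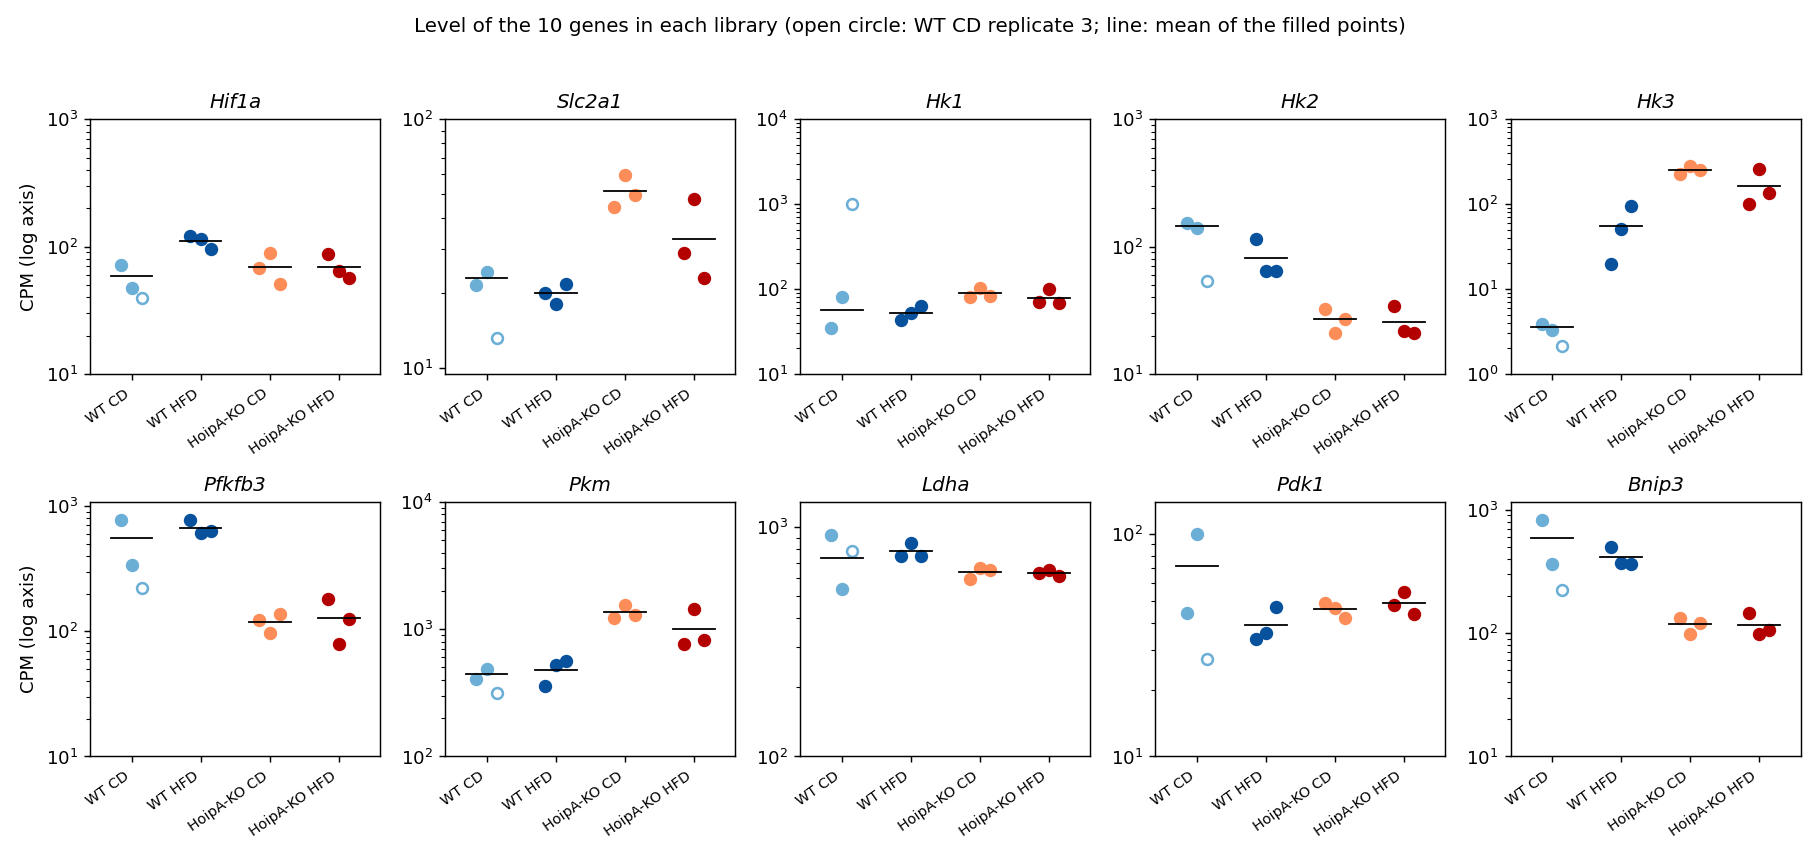
Level of each of the 10 genes in CPM (log axis, 1 panel per gene) in the 12 libraries, grouped by genotype and diet. Filled points are the 11 libraries of the fits, the open circle is WT CD replicate 3, and lines are means of the filled points. HoipA-KO libraries lie above all WT libraries for Hk3 and Pkm, and above those of the same diet for Slc2a1. They lie below all WT libraries for Hk2, Pfkfb3 and Bnip3. The share of all genes that separate in this way is not given. The open circle of Hk1 stands at 1014 CPM.

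In GRCm38 (GENCODE vM21) the members are annotated as follows, with Hif1a at chr12:73901375-73947530, Slc2a1 at chr4:119108711-119137983, Hk1 at chr10:62268855-62379908, Hk2 at chr6:82725025-82774454, Hk3 at chr13:55005985-55021385, Pfkfb3 at chr2:11471433-11554077, Pkm at chr9:59656368-59679375, Ldha at chr7:46841475-46855627, Pdk1 at chr2:71873224-71903858 and Bnip3 at chr7:138890836-138909519. Exons of Hk2, Pfkfb3, Ldha and Pdk1 share no bases with another gene. Those of Hif1a, Slc2a1, Hk1, Hk3 and Bnip3 share 34 to 342 bases with a gene on the opposite strand, which a stranded library can tell apart where counting used the strand. On the same strand, Hif1a shares 148 bases with Gm49321 and Pkm 767 with Gm49759, so that reads of each pair could be split between them.

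The sequence before the transcription start is shown for 4 members that differ in direction: Hk2 and Bnip3, which were lower in HoipA-KO tissue, Hk3, which was higher, and Ldha, a member often used as an example of HIF-1 regulation, which was not called. Each run is the 250 bases before a RefSeq start in GRCm38.p6, written on the strand of the gene. Capitals mark the core letters of the hypoxia response element, ACGTG or GCGTG, on either strand, so that CACGT and CACGC are the same cores read from the other strand. CACGTG holds the core on both strands and is counted as 1 place, and it is also the E-box bound by MYC and related factors. Hk2 lies at chr6:82774455-82774704 on the minus strand, Hk3 at chr13:55021386-55021635 on the minus strand, Bnip3 at chr7:138909507-138909756 on the minus strand, and the first of the 2 Ldha starts at chr7:46845554-46845803 on the plus strand.
Hk2: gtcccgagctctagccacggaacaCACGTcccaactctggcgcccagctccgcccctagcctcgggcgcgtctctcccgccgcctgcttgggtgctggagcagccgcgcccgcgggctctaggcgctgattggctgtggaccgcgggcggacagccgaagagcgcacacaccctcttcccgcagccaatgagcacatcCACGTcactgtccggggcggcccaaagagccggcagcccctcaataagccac
Hk3: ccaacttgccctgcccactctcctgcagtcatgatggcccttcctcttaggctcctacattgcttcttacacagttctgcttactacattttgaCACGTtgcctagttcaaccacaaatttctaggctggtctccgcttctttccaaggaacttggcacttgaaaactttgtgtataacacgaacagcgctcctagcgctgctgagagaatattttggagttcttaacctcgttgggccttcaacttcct
Bnip3: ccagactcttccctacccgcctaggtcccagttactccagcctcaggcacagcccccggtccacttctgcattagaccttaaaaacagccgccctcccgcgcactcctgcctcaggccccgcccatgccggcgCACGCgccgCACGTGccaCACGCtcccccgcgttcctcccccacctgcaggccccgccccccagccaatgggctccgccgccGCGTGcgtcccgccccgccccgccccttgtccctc
Ldha: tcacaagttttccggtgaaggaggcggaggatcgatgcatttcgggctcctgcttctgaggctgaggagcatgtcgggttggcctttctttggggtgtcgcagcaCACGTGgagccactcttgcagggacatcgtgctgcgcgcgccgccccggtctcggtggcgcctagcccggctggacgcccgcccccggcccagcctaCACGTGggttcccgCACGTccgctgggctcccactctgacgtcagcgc

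Bnip3 held 4 such places, of which the first began 117 bases before the start and 1 was CACGTG. Ldha held 3, of which 2 were CACGTG. Hk2 held 2, beginning 226 and 52 bases before the start, and Hk3 held 1, beginning 156 bases before it. Over all members, 12 of the 15 starts in the table held at least 1 place (80.0%) and 7 held at least 2, against 38.6% and 13.49% of all 32851 promoters of this length. The members were picked as hypoxia and glycolysis genes, so this share describes the set and gives no test. Places were found before members of either direction and before members that were not called, with 2 each at Slc2a1, Hif1a, the second start of Pfkfb3 and the second start of Hk1. Matches are descriptions of the letters and not of binding.

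Hif1a encodes the oxygen-regulated subunit of HIF-1. Its level in WT mice was 71.0, 47.0 and 39.6 CPM with CD and 121, 116 and 95.9 CPM with HFD. HoipA-KO CD libraries had 67.5, 89.2 and 50.8 CPM and HoipA-KO HFD libraries 88.2, 64.2 and 56.4. The WT HFD libraries were the 3 highest of all 12, and the other groups overlapped. HFD in WT mice gave a log2 fold change of 0.92 ± 0.29 (adjusted p = 0.0613 by edgeR), which was not called over 11 libraries and was called over 12 (1.08 ± 0.28, adjusted p = 0.0316), with an adjusted p of 0.00614 to 0.303 over the alternatives. The genotypes differed by 0.28 ± 0.29 on CD and by -0.66 ± 0.25 on HFD, and neither value was called (adjusted p of 0.467 and 0.115 by edgeR). On HFD the 2 genotypes did not overlap in Hif1a. The interaction, the difference between the genotype effects on the 2 diets, was -0.93 ± 0.38 (adjusted p = 0.186).

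Slc2a1 encodes GLUT1, the glucose carrier present in most cells. HoipA-KO CD libraries had 44.3, 59.8 and 49.7 CPM, whereas WT CD had 21.5, 24.2 and 13.2. WT HFD libraries had 19.9, 18.1 and 21.8 CPM and HoipA-KO HFD libraries 28.9, 47.6 and 22.9. Every HoipA-KO library lay above every WT library of the same diet, but on HFD the lowest HoipA-KO library (22.9) stood close to the highest WT library (21.8). On CD Slc2a1 rose by 1.21 ± 0.29 (adjusted p = 0.0110) and on HFD the difference of 0.75 ± 0.25 was not called (adjusted p = 0.0809 by edgeR, 0.0256 to 0.229 over the alternatives). The difference between the 2 diets was not called (interaction -0.46 ± 0.38, adjusted p = 0.509).

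Hk3 encodes a hexokinase found mainly in myeloid cells. It had 3.90, 3.32 and 2.15 CPM in WT CD, 19.5, 51.3 and 93.9 in WT HFD, 227, 280.2 and 250.4 in HoipA-KO CD, and 99.2, 257 and 134 in HoipA-KO HFD. The WT groups did not overlap with each other or with HoipA-KO on the same diet, although on HFD the highest WT library (93.9) was just below the lowest HoipA-KO library (99.2). On CD Hk3 rose by 6.17 ± 0.76 in HoipA-KO (adjusted p = 0.000565) and by 6.34 ± 0.64 over 12 libraries. HFD raised it by 3.94 ± 0.68 in WT mice (adjusted p = 0.00803 by edgeR). This call was lost without WT CD replicate 2 (adjusted p = 0.0522) and in a fit of those 2 groups alone (0.0861), and its adjusted p went down to 3.29e-10 over the alternatives. On HFD the genotype difference of 1.60 ± 0.51 was not called (adjusted p = 0.0702), and it was 2.25 without WT HFD replicate 3 (adjusted p = 0.0250, with 0.00745 to 0.216 over the alternatives). Hk3 was the only member whose interaction was called, at -4.58 ± 0.82 (adjusted p = 0.0260 by edgeR), against 0.331% of all genes higher and 3.58% lower. Of the 9 macrophage markers, 6 were called lower in the same test and none higher, with a median of -2.52. Over 12 libraries the interaction of Hk3 was -4.76 ± 0.75 (adjusted p = 0.0131), against 2.78% of all genes in either direction. It fell outside the threshold, at an adjusted p of 0.0580 to 0.0931, when 1 of 7 libraries was left out, with its value between -4.66 and -4.21: WT CD replicate 2, WT HFD replicate 2, any HoipA-KO CD library, or HoipA-KO HFD replicate 1 or 3.

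Hk2 encodes the insulin-responsive hexokinase of adipocytes and muscle. WT CD libraries had 153, 139.6 and 54.0 CPM and WT HFD libraries 114, 64.5 and 63.8. HoipA-KO libraries had 32.1, 21.1 and 27.2 CPM on CD and 34.4, 21.6 and 20.8 on HFD, so that all 6 lay below all 6 WT libraries. On CD, Hk2 fell by 2.41 ± 0.30 in HoipA-KO mice (adjusted p = 0.000591). The change on HFD was -1.65 ± 0.28 (adjusted p = 0.0117 by edgeR). That call was lost over 12 libraries (adjusted p = 0.0555), with WT CD replicates 1 and 3 as controls (0.0568) and without HoipA-KO HFD replicate 2 (0.0555), while the change stayed between -1.90 and -1.31. HFD in WT mice gave -0.84 ± 0.30, which was not called (adjusted p = 0.0861). The value of that diet comparison without WT HFD replicate 1 was -1.18 (adjusted p = 0.0219, with up to 0.703 over the alternatives).

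Hk1 encodes the hexokinase that most tissues use, and germ cells make forms of it as well. Its level was 34.7 CPM in WT CD replicate 1, 80.0 in replicate 2, 43.2, 52.3 and 62.6 in WT HFD, 81.2, 103 and 81.9 in HoipA-KO CD and 69.5, 99.7 and 68.7 in HoipA-KO HFD. In WT CD replicate 3, the library with 11192.5 CPM of germ cell markers, it had 1014 CPM. The part of those cells in this value was not tested. Over 11 libraries every HoipA-KO library lay above every WT library of its diet, and the differences of 0.68 ± 0.34 on CD and 0.61 ± 0.30 on HFD were not called (adjusted p of 0.142 and 0.194 by edgeR). The library decides the direction on CD: over 12 libraries the log2 fold change was -2.09 ± 0.94 (adjusted p = 0.107), and with WT CD replicates 2 and 3 as the controls it was -2.58 (adjusted p = 0.0203). Without WT CD replicate 2, which leaves replicate 1 as the lone control assumed to vary like the other groups, it was 1.403 (adjusted p = 0.0104 by edgeR).

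Per kilobase of annotated exons (GENCODE vM21), the 3 hexokinases summed to 30.7 and 33.7 CPM per kb in WT CD replicates 1 and 2, 29.5 to 43.5 in WT HFD, 76.5 to 91.7 in HoipA-KO CD and 40.8 to 85.1 in HoipA-KO HFD. Hk2 made up 83.3% and 69.5% of that sum in the first pair and Hk3 3.45% and 2.68%. In HoipA-KO CD Hk2 made up 3.86% to 7.02% and Hk3 80.5% to 83.0%. In WT HFD the 3 libraries differed, with Hk3 at 17.9%, 45.1% and 58.6% and Hk2 at 64.95%, 35.01% and 24.6%. In HoipA-KO HFD Hk3 made up 65.95%, 82.0% and 75.9%. The leading hexokinase transcript was thus Hk2 in WT CD replicates 1 and 2, Hk1 in WT CD replicate 3 (92.5%) and Hk3 in all 6 HoipA-KO libraries. Dividing by the longest coding transcript instead gave the same leading gene in each of these libraries, with Hk3 at 57.8% to 76.4% in HoipA-KO.

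**Figure D2:**
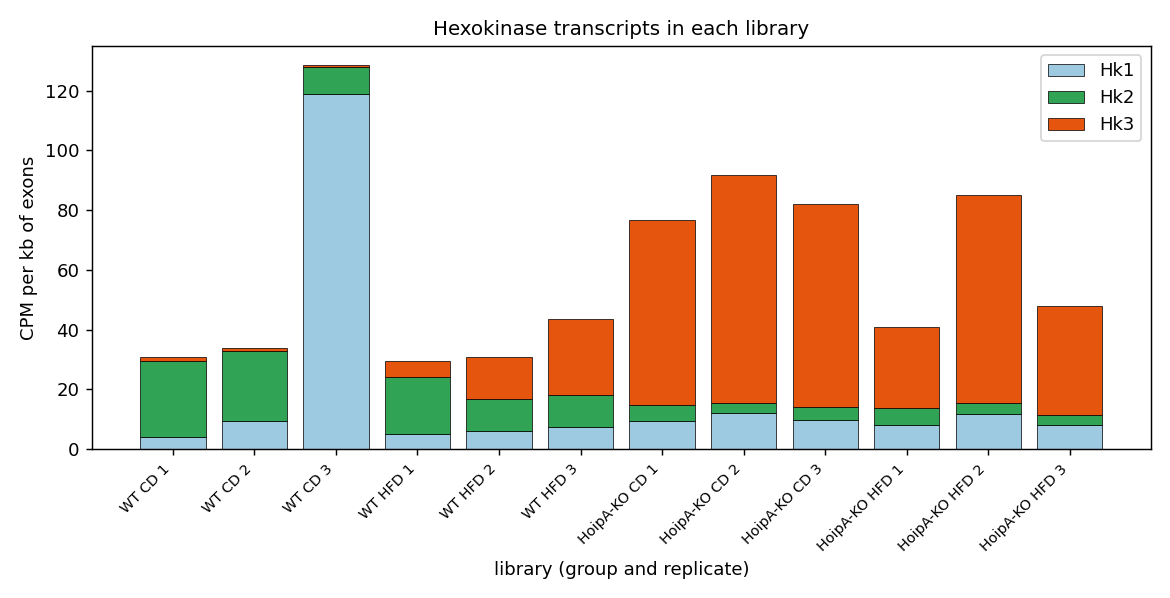
Levels of Hk1, Hk2 and Hk3 in CPM per kb of exons, stacked, in each of the 12 libraries (1 bar per library, named by group and replicate). Hk2 is the largest share in WT CD 1 and 2, Hk3 in all HoipA-KO libraries, and the bar of WT CD 3 is 92.5% Hk1.

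Pfkfb3 encodes an enzyme that makes the activator of phosphofructokinase and is itself a HIF-1 target. It had 772, 336 and 221 CPM in WT CD, 770.2, 606 and 627 in WT HFD, 123, 97.0 and 137 in HoipA-KO CD and 180.1, 79.5 and 126 in HoipA-KO HFD. No HoipA-KO library reached the lowest WT library. The log2 change of Pfkfb3 in HoipA-KO was -2.18 ± 0.38 for CD and -2.37 ± 0.36 for HFD (adjusted p of 0.00230 and 0.00956 by edgeR). Both calls held over 12 libraries, at -1.90 and -2.38 (adjusted p of 0.0103 and 0.0343). The size on CD rests on WT CD replicate 1, without which it was -1.46, while it was -2.66 without replicate 2. The interaction was not called (-0.19 ± 0.51, adjusted p = 0.861), and HFD in WT mice gave 0.28 ± 0.38.

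Pkm encodes the pyruvate kinase of most tissues other than liver and red cells, and the count covers both of its splice forms, PKM1 and PKM2. Its level was 405, 483 and 317 CPM in WT CD and 360.3, 519 and 563 in WT HFD. The HoipA-KO libraries, at 1226, 1554 and 1298 CPM for CD and 759, 1434 and 820.4 for HFD, were all above every WT library. In HoipA-KO mice Pkm rose by 1.66 ± 0.34 on CD (adjusted p = 0.00472). On HFD it rose by 1.09 ± 0.29 (adjusted p = 0.0401 by edgeR). The call on HFD was lost under 13 of 24 alternatives, over 12 libraries among them (adjusted p = 0.0783, with 0.00108 to 0.1496 over the alternatives), and leaving out HoipA-KO HFD replicate 2 gave the smallest change, 0.72. It was also lost when WT HFD replicate 1 or 2, any HoipA-KO CD library or HoipA-KO HFD replicate 3 was left out. Gm49759 overlaps Pkm on the same strand, as given above.

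Ldha, which encodes the subunit of lactate dehydrogenase that favours lactate, had the smallest root-mean-square (RMS) spread of the members over the 11 libraries (0.220 on the log2 scale). It had 922, 540.1 and 790.4 CPM in WT CD, 747, 857 and 751 in WT HFD, 593, 662 and 654 in HoipA-KO CD and 629, 653 and 613 in HoipA-KO HFD. The HoipA-KO groups lay within the range of WT CD, and below WT HFD. The difference in Ldha was -0.16 ± 0.22 for CD (adjusted p = 0.605 by edgeR) and -0.30 ± 0.20 for HFD (adjusted p = 0.332), which does not show that the levels were equal.

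Pdk1 encodes the pyruvate dehydrogenase kinase that HIF-1 is known to raise. It had 44.0, 99.6 and 27.3 CPM in WT CD, 33.6, 36.0 and 47.1 in WT HFD, 49.0, 46.5 and 42.0 in HoipA-KO CD and 47.8, 54.8 and 43.7 in HoipA-KO HFD. Apart from WT CD replicate 2, the library with the epididymal markers, all values lay between 27.3 and 54.8. HoipA-KO differed from WT in Pdk1 by -0.60 ± 0.29 on CD and by 0.34 ± 0.26 on HFD, and neither passed (adjusted p of 0.129 and 0.393 by edgeR). The value on CD rests on which WT library serves as control, at -1.08 without WT CD replicate 1 (adjusted p = 0.00408, with up to 0.754 over the alternatives) and 0.10 without replicate 2. Each of these fits has a lone control library, and the first rests on replicate 2 with its 99.6 CPM and epididymal markers.

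Bnip3 encodes a mitochondrial protein that promotes mitophagy and is a standard HIF-1 target. Its level was 825, 362 and 222 CPM in WT CD, 499.8, 369.9 and 359.8 in WT HFD, 133, 99.1 and 121 in HoipA-KO CD, and 145, 98.3 and 107 in HoipA-KO HFD. All HoipA-KO libraries lay below all WT libraries. On the log2 scale the change of Bnip3 was -2.29 ± 0.32 for CD and -1.80 ± 0.30 for HFD (adjusted p of 0.000918 and 0.0115 by edgeR). All 12 libraries gave -1.995 ± 0.41 and -1.81 ± 0.41 (adjusted p of 0.00609 and 0.0477). Without HoipA-KO HFD replicate 2 the value on HFD was -1.70 (adjusted p = 0.0530, the highest over the alternatives). As for Pfkfb3, the size on CD moved with the WT CD library left out, to -1.58 without replicate 1 and to -2.77 without replicate 2. An opposite-strand gene, Gm45507, shares up to 342 bases with a Bnip3 exon in the annotation.

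**Figure D3:**
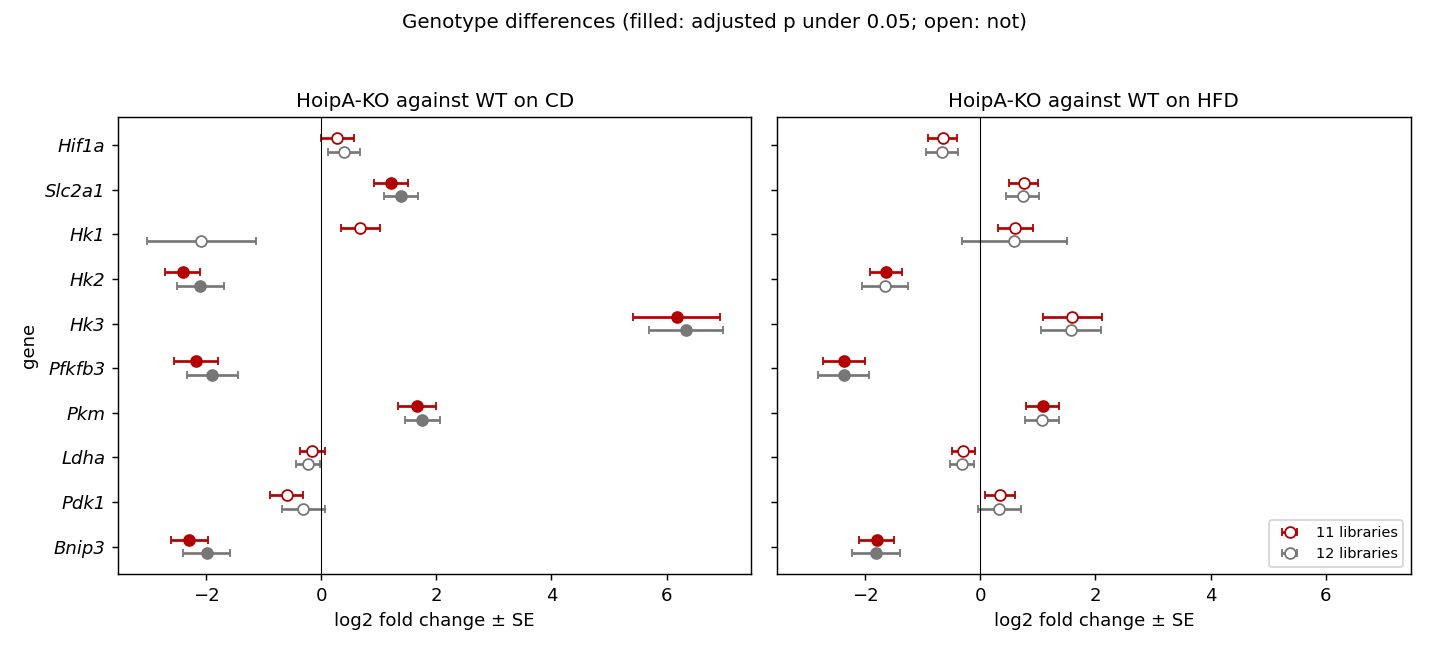
Log2 fold change with its standard error (x axis) for each gene (y axis) in HoipA-KO against WT mice, on CD in the left panel and on HFD in the right, over 11 and over 12 libraries. Filled points passed an adjusted p of 0.05. Hk3 stands at 6.17 on CD and 1.60 on HFD, Hk2, Pfkfb3 and Bnip3 lie left of 0 on both diets, and Hk1 on CD changes sign between 11 and 12 libraries.

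Over 12 libraries the same 6 members passed the threshold on CD, against 34.7% of all genes in either direction. On HFD, 2 did (Pfkfb3 and Bnip3), against 2.78% of all genes. DESeq2's Wald test over 11 libraries called 6 members on HFD, with Slc2a1 and Hk3 in addition to the 4 of edgeR, against 24.2% of all genes. For HFD in WT mice Hk3 and Hif1a passed it, against 15.0% of all genes, and DESeq2 called 4 there (Hk3, Hif1a, Hk2 and Pdk1), against 24.7%. The median log2 fold change of the 10 members over 11 libraries was 0.06 on CD and 0.02 on HFD, beside -0.06 and 0.06 for all genes tested, since members lay on both sides. In HoipA-KO mice the diet differences of the members ran from -0.64 for Slc2a1 and Hk3 to 0.09 for Pfkfb3. edgeR called 0 of 10 there, with 1 at an unadjusted p under 0.05, and DESeq2's Wald test called 0. Over all genes edgeR called 0, with 415 at an unadjusted p under 0.05, and DESeq2 called 7 (0.038%).

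The members that fell were followed relative to the adipocyte markers of the same library, and Hk3 relative to the macrophage markers. These ratios were chosen after the levels were seen and carry no test. Bnip3 had 12.6, 12.9 and 11.7 CPM per 1000 CPM of adipocyte markers in WT CD, 13.01, 9.23 and 11.3 in WT HFD, 9.14, 6.85 and 8.22 in HoipA-KO CD and 11.3, 8.10 and 7.26 in HoipA-KO HFD. Hk2 had 2.34, 4.98 and 2.84 in WT CD, 2.98, 1.61 and 2.01 in WT HFD, 2.20, 1.46 and 1.85 in HoipA-KO CD and 2.69, 1.78 and 1.41 in HoipA-KO HFD. On this scale the genotypes did not overlap on CD for either gene and overlapped on HFD. Pfkfb3 had 11.8, 11.98 and 11.7 in WT CD, 20.04, 15.1 and 19.8 in WT HFD, 8.46, 6.71 and 9.29 in HoipA-KO CD and 14.1, 6.55 and 8.56 in HoipA-KO HFD, with no overlap of the genotypes on either diet. Pfkfb3 was also higher on this scale in WT HFD than in WT CD, without overlap. These orders hold for the sum, which Fabp4 and Lpl lead. Lpl had 6713, 8960 and 6196 CPM in HoipA-KO CD against 5014 to 15342 in WT CD. Adipoq had 462, 297 and 499 CPM against 1258 to 3542. The median log2 fold change of the 10 markers in HoipA-KO was -2.08 on CD and -2.04 on HFD. On HFD Adipoq had 373, 203 and 324 CPM in HoipA-KO against 1684 to 2493 in WT. Per Adipoq alone the order of the genotypes turned around. HoipA-KO libraries then lay above all WT libraries of the same diet for Pfkfb3 and Bnip3. For Hk2 they lay above WT on HFD and overlapped with WT on CD. The order thus depends on the markers summed, and ratios to single markers were not tested.

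Hk3 had 5.425, 6.18 and 4.55 CPM per 1000 CPM of macrophage markers in WT CD, 9.61, 14.0 and 15.8 in WT HFD, 23.8, 22.0 and 25.3 in HoipA-KO CD and 13.4, 22.3 and 16.3 in HoipA-KO HFD. On this sum the 3 WT CD libraries were the lowest and the HoipA-KO CD libraries were above all WT libraries, whereas HoipA-KO HFD and WT HFD overlapped. Lyz2 led the sum, with 5093, 7498 and 5185 CPM in HoipA-KO CD. Cd68 had 24.1, 20.8 and 14.1 CPM in WT CD and 147, 335 and 602 in WT HFD. The order depends on the markers summed, and per Cd68 alone the WT CD libraries were not the lowest. Pkm per 1000 CPM of macrophage markers went the other way, from 564 and 899 in WT CD replicates 1 and 2 to 122 to 131 in HoipA-KO CD, with Slc2a1 at 29.9 and 45.1 against 4.65 to 5.02. What part the makeup of the tissue has in the changes of the members was not tested.

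**Figure D4:**
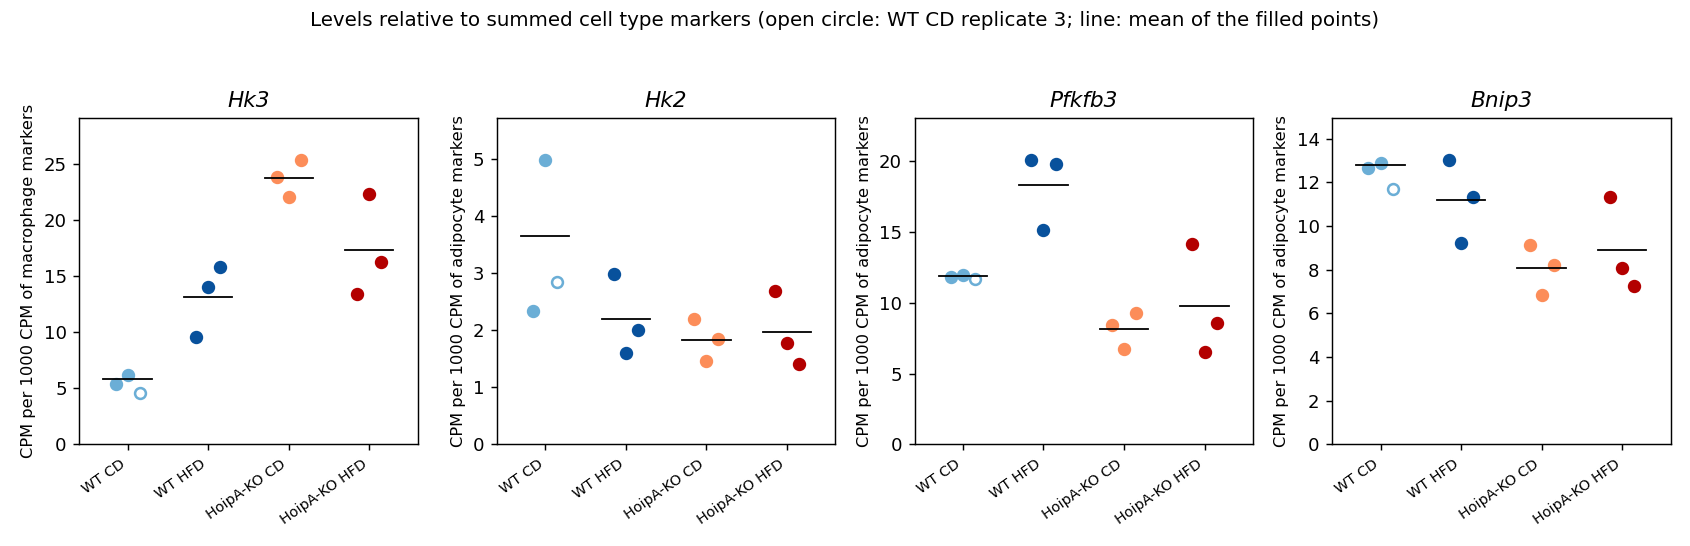
CPM of Hk3 per 1000 CPM of summed macrophage markers, and of Hk2, Pfkfb3 and Bnip3 per 1000 CPM of summed adipocyte markers (y axes from 0), in each library by group. Filled points are the 11 libraries, the open circle is WT CD replicate 3, and lines are means of the filled points. Hk3 runs from 4.55 to 6.18 in WT CD and from 22.0 to 25.3 in HoipA-KO CD, while Bnip3 runs from 6.85 to 13.01 over all 12 libraries.

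Ratios of a member to a related gene within a library need no scaling between libraries. Of 28 differences (7 pairs in 4 comparisons), 14 were larger than 1 on the log2 scale. Other gene pairs were not counted and Hk2 is in more than 1 pair, so this count only describes the chosen pairs. Hk3 to Hk2 was 0.0262 and 0.0245 in WT CD replicates 1 and 2, 0.171, 0.795 and 1.47 in WT HFD, 7.05, 13.2 and 9.17 in HoipA-KO CD and 2.88, 11.8 and 6.41 in HoipA-KO HFD. Its log2 ratio differed between HoipA-KO and WT by 8.55 on CD and by 3.37 on HFD, without overlap. Slc2a1 to Slc2a4, the insulin-responsive carrier GLUT4 of fat and muscle, was 0.0752 and 0.206 in WT CD, 0.169, 0.190 and 0.333 in WT HFD, 1.13, 2.61 and 1.12 in HoipA-KO CD and 0.823, 2.12 and 0.856 in HoipA-KO HFD. Hk1 to Hk2 differed by 3.20 on CD and by 2.22 on HFD on the log2 scale, without overlap, and on CD by 1.30 with overlap over 12 libraries. The ratio of Slc2a1 to Slc2a4 counts lay below 1 in every WT library and above 1 in every HoipA-KO CD library.

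Bnip3 to Bnip3l, its mitophagy paralog, was 4.15 and 2.25 in WT CD, 2.68, 1.93 and 1.79 in WT HFD, 0.518, 0.359 and 0.588 in HoipA-KO CD and 0.849, 0.388 and 0.655 in HoipA-KO HFD. The paralog itself was not called on either diet (0.50 ± 0.23 on CD and 0.04 ± 0.21 on HFD, adjusted p of 0.117 and 0.915 by edgeR). Pdk1 to Pdk4, the kinase that fasting and fatty acids raise in many tissues, was 0.975 and 2.71 in WT CD and 0.374, 0.246 and 0.281 in WT HFD, and 0.511 to 0.930 in the HoipA-KO libraries. Hif1a to Epas1, which encodes HIF-2α, differed by 0.87 between the genotypes on CD and by 0.11 on HFD. Ldha to Ldhb differed by 1.16 on CD and by -0.74 on HFD. With 2 against 3 libraries the exact permutation test, two-sided, cannot give less than p = 0.2, and with 3 against 3 not less than p = 0.1. Adjusted over the 28 differences the lowest was 0.35, so that none could pass the threshold.

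Among 30 rows of other glycolysis genes, chosen from general knowledge of the pathway, 6 were higher and 6 lower in HoipA-KO on CD, beside the 18.9% and 18.8% of all genes, with a median log2 fold change of -0.29 beside -0.06 for all genes. Over 12 libraries 5 were higher and 10 lower, beside 34.7% of all genes in either direction, with a median of -0.37 beside -0.21. The largest rises were Eno2 (3.02 ± 0.37), an enolase, Slc16a3 (2.47 ± 0.56), the lactate exporter MCT4, and Pfkfb4 (2.30 ± 0.28), a relative of Pfkfb3 that moved the other way. Eno2 had 1.35 to 2.44 CPM in WT CD and 11.7 to 17.2 in HoipA-KO CD. The largest falls were Pgam2 (-4.82 ± 1.42), Slc2a3 (-2.78 ± 0.40) and Pfkfb1 (-2.54 ± 0.24), another relative of Pfkfb3, and for the first pair the library makeup moves with the value. In WT CD replicates 1 to 3, Slc2a3 had 35.02, 77.4 and 638 CPM and Pgam2 had 0.512, 6.17 and 349, beside germ cell markers of 18.9, 396 and 11192.5 CPM, whose part was not tested. On HFD, 4.2% of all genes were higher and 7.62% lower. Of the glycolysis rows, 2 were higher (Slc16a3 by 1.67 and Eno2 by 1.11) and 2 lower (Slc2a4 by -1.72 and Pfkfb1 by -1.51), with a median of -0.0039 beside 0.06. Over 12 libraries edgeR called none of them on HFD, beside 2.78% of all genes, with 7 at an unadjusted p under 0.05. DESeq2 called 8 of 30 over 11 libraries, beside 24.2% of all genes. In WT mice HFD raised Eno2 (2.10), Pfkfb4 (1.60) and Pfkp (0.90), a phosphofructokinase, beside 9.35% of all genes. It lowered Slc2a3 (-2.88) and Pfkfb1 (-1.30), beside 5.47% of all genes. Over 12 libraries 1 was higher and 5 lower there, beside 15.0% of all genes in either direction. The calls of Pfkfb4 (1.03, adjusted p = 0.0724 by edgeR), Pfkp (0.40, 0.402) and Pfkfb1 (-0.94, 0.1251) were lost. The interaction was called for Slc2a3 (3.21), Eno2 (-1.90) and Pfkfb4 (-1.87), the last not over 12 libraries, beside 0.331% of all genes higher and 3.58% lower.

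**Figure D5:**
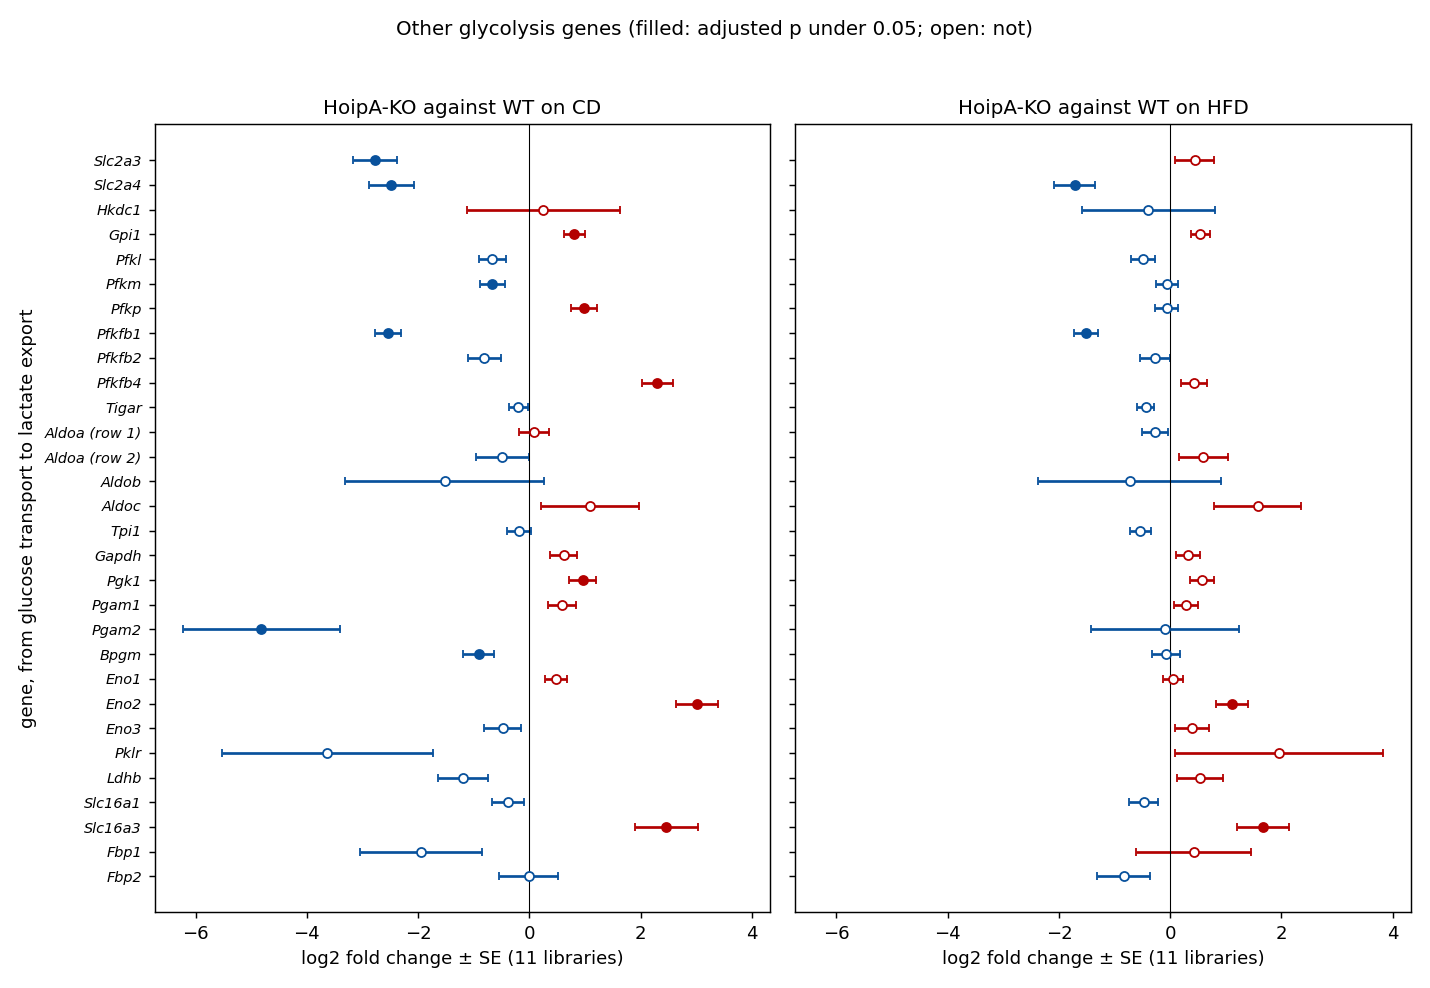
Log2 fold change with its standard error (x axis) of the other glycolysis genes (y axis, from glucose transport to lactate export, then the 2 fructose bisphosphatases) in HoipA-KO against WT mice on CD (left) and HFD (right), over 11 libraries. Filled points passed an adjusted p of 0.05, with higher values in red and lower values in blue. On CD, 6 of the 30 rows are filled to the right and 6 to the left, and on HFD 2 on each side.

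Of 26 other HIF target genes, 7 were higher and 7 lower in HoipA-KO on CD, beside the 18.9% and 18.8% of all genes. Over 12 libraries 7 were higher and 5 lower, beside 34.7% of all genes in either direction. The median over 11 libraries was -0.19 beside -0.06 for all genes. The largest rises were Car9 (4.68 ± 0.66), a carbonic anhydrase, Hmox1 (4.46 ± 0.57), haem oxygenase 1, and Hilpda (2.59 ± 0.37), a lipid droplet protein. Hmox1 had at most 37.7 CPM in WT CD and 488 to 795 in HoipA-KO CD, and Car9 had at most 4.77 CPM in any library. The largest falls were Ak4 (-3.35 ± 0.95), an adenylate kinase, Stc2 (-2.54 ± 0.66) and Vegfa (-2.02 ± 0.42), the endothelial growth factor. Ak4 had 1.29 CPM in WT CD replicate 1 and 38.2 in replicate 2, so that its fall rests on replicate 2, which held the epididymal markers. On HFD Hmox1 was higher (1.61), beside 4.2% of all genes, and 4 were lower, beside 7.62%. The largest falls were Vegfa (-1.74), Adm (-1.08) and Higd1a (-0.93). Over 12 libraries none was called by edgeR (7 at an unadjusted p under 0.05), beside 2.78% of all genes. In WT mice HFD raised 6, beside 9.35% of all genes, led by Car9 (3.78), Hmox1 (2.10) and Lox (1.99), a collagen crosslinker. It lowered Ak4 (-3.27), beside 5.47% of all genes, and that call was lost over 12 libraries (adjusted p = 0.0703 by edgeR). The interaction was called lower for 4, beside 3.58% of all genes, led by Car9 (-3.77), Hmox1 (-2.84) and Hilpda (-2.04). Over 12 libraries 2 were called, without Hilpda (-1.78, adjusted p = 0.0719 by edgeR), beside 2.78% of all genes.

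Of 11 HIF subunits and regulators, none was higher on CD and 1 was lower, Arnt2 (-4.86 ± 1.42), beside 18.9% and 18.8% of all genes. Arnt2 had 0.146 CPM in WT CD replicate 1 and 78.1 in replicate 2. Its fall thus rests on the library with the epididymal markers, whose part was not tested. On HFD, 1 was lower, Vhl (-0.96 ± 0.25), beside 7.62% of all genes. Vhl encodes the ubiquitin ligase subunit that marks HIF-α for degradation, and it was not called over 12 libraries (adjusted p = 0.115 by edgeR). Of 7 kinases, phosphatases and subunits around pyruvate dehydrogenase, 1 was higher and 4 were lower on CD, beside 18.9% and 18.8% of all genes. The phosphatase Pdp1 was higher (1.20 ± 0.26, but 0.50 and not called over 12 libraries). The falls were led by Pdk2 (-1.58 ± 0.21), Pdha1 (-1.23 ± 0.21) and Pdhb (-1.06 ± 0.16), the last 2 being subunits of the enzyme. On HFD Pdha1 (-0.78) and Pdhb (-0.55) were lower, beside 7.62% of all genes. Over 12 libraries edgeR called none of the 7 (3 at an unadjusted p under 0.05), beside 2.78% of all genes. In WT mice HFD raised Pdk4 (1.73 ± 0.38), beside 9.35% of all genes. It lowered Pdk2 (-1.13), Pdk3 (-0.90) and Pdhb (-0.71), beside 5.47% of all genes, and Arnt2 was lower (-5.25), again with 1 library deciding. Over 12 libraries Pdhb and Arnt2 were not called there (adjusted p of 0.0594 and 0.0546 by edgeR). The interaction was called for Pdk2 (1.25 ± 0.29), beside 0.331% of all genes higher and 3.58% lower. It was called for none of the 11 HIF subunits and regulators (2 at an unadjusted p under 0.05, 1 by DESeq2, which called 12.9% of all genes). In HoipA-KO mice edgeR called no gene of these 4 lists between the diets, with 1 at an unadjusted p under 0.05, and DESeq2 called none.

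The genes whose profiles over the 11 libraries lay closest to each member were found among 9871 other genes with a mean of at least 10 CPM, by the RMS difference of log2(CPM + 1) after centring each gene on its own mean. For Hk3 they were Itgb2 (0.210), Lat2 (0.214) and Ctss (0.219), beside an RMS spread of 2.12 of Hk3 itself. For Hk2 they were mt-Nd4l (0.172), Aldh5a1 and mt-Nd4 beside a spread of 1.04. For Bnip3 they were Aoc3 (0.152), Hoxc8 and Lpin1 beside 1.04, and for Pfkfb3 Apol6 (0.199), Cdsn and H2bc6 beside 1.22. For Pkm they were Txn1 (0.152), Akr1a1 and Prr13 beside 0.731, and for Slc2a1 Slc16a6 (0.192), Mindy1 and Zdhhc18 beside 0.574. Profiles of the other 4 members varied less, and their closest genes were Cmas, Snx1 and Tram1 for Hk1, Ppp1cb, Fbxl5 and Svil for Hif1a, Coq3, Jkamp and Mnat1 for Ldha, and Dnmbp, Scap and Sidt2 for Pdk1. All profiles share the same 11 libraries and their normalization.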

How the data were processed

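GWAT of male WT and HoipA-KO mice on CD or HFD was measured by stranded, poly(A)-selected RNA sequencing in 12 libraries of 3 pooled mice each. Per the labels and methods, the authors trimmed reads with Trim Galore 0.6.7, aligned them with STAR 2.7.10a to GRCm38 and quantified genes with Salmon 1.5.2 (submitters' processing notes). The authors deposited estimated counts per gene, without normalization, which were rounded here. The methods name a human assembly, while identifiers are of mouse genes. Deposited DESeq2 tables hold the authors' own fold changes, p-values and CPM and were not used.

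Counts of 11 libraries were kept where filterByExpr passed them and fitted in edgeR 4.0.16 (R 4.3.3), with TMM factors and 1 model of 4 groups, using the quasi-likelihood test, Benjamini-Hochberg adjustment and a threshold of 0.05. Log2 fold changes use a prior count of 0.125. The biological coefficient of variation was 0.394 over 11 libraries and 0.514 over 12. In data simulated for HoipA-KO against WT on CD (18025 genes), 111 of 200 genes changed by a factor of 4 were called and 6 others were. Within-library ratios add 0.1 CPM. Positions and exon lengths are from GENCODE vM21 (GRCm38) and promoters from RefSeq (GRCm38.p6), where all 10 members matched.

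The labels do not say that replicate numbers mark shared animals or batches. In the HoipA-KO groups the 3 same-numbered pairs of CD and HFD libraries had correlations of deviations from their group means of 0.152, 0.522 and 0.290. Differently numbered pairs of these groups ran from -0.535 to 0.269, so the values do not set the numbers apart. The diet comparison in HoipA-KO mice was also read with the number as a block.

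Members and lists were chosen with earlier results of these data known. A gene of the glycolysis list is not reported here and was left out of its counts. Named genes are the members, their paralogs, Rnf31, the 3 largest called rises and falls of each list in each comparison, and the 3 genes closest to each member. Alternatives were DESeq2's size factors, library size alone, no filter, at least 10 counts in every library, protein-coding genes only, all 12 libraries, other pairs of WT CD libraries, the replicate number as a block, DESeq2's Wald test (version 1.42.0), the 2 groups alone, a stricter threshold of 0.01, a minimum change of 1 (log2), each library left out, and 0.5 CPM in the ratios.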

Additional observations from a re-analysis of the deposited data

Results flagged for a closer look

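Hk3 differed between the diets in its genotype effect, with an interaction of -4.58 on the log2 scale (adjusted p = 0.0260 by edgeR over 11 libraries, Benjamini-Hochberg method). HoipA-KO exceeded WT by 6.17 on CD and by 1.60 on HFD, and the call is lost when 1 of 7 libraries is left out. The macrophage markers shared the direction, with 6 of 9 called lower in the interaction and a median of -2.52. Hk1 stood at 1014 CPM in WT CD replicate 3, a library outside the main comparisons, against 34.7 to 103 CPM in the other 11 libraries. In the same library the germ cell markers summed to 11192.5 CPM and Slc2a3 had 638 CPM, and whether they share a source was not tested. Groups of 3 were too small for a search for single outlying libraries.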

How the results depend on the processing

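Of 1190 values of the 10 members recomputed under the alternatives, 1069 kept their direction and their side of the threshold, 65 changed sign without being called in either fit, 30 lost a call, 25 gained one and 1 reversed. The reversed value was Hk1 on CD, at -2.58 with WT CD replicates 2 and 3 against 0.68 in the main fit, where it was not called. Of members called in HoipA-KO against WT on HFD (4), 2 were called over all 12 libraries, 2 with WT CD replicates 1 and 3, 1 at an adjusted p of 0.01, 5 with library size alone (Slc2a1 gained) and 6 by DESeq2 (Slc2a1 and Hk3 gained). For HFD in WT mice (1), 2 were called with library size alone, over all 12 libraries and with WT CD replicates 1 and 3, 4 with WT CD replicates 2 and 3 and by DESeq2, and 0 in a fit of the 2 groups alone. For the interaction (1), 2 were called with WT CD replicates 2 and 3 and 0 at an adjusted p of 0.01. Leaving out 1 library gave 6 to 7 calls on CD, 1 to 5 on HFD (1 without HoipA-KO HFD replicate 2, 5 without WT HFD replicate 3), 0 to 4 for HFD in WT mice (0 without WT CD replicate 2, 4 without replicate 1) and 0 to 2 for the interaction. Fits without WT CD replicate 1 or 2 leave 1 WT CD library, assumed to vary like the other groups. The share of all genes called moved with the setting as well. For HFD in WT mice it was 15.0% over 12 libraries and 24.7% by DESeq2. For HoipA-KO against WT on HFD it was 2.78% and 24.2%. Shares under the other settings are not given, so these counts do not set the members apart from all genes. The cause of these shifts was not tested. Outside HoipA-KO CD and HFD, at least 1 same-numbered pair of each other pair of groups had a correlation of deviations under 0.1. This does not show that the libraries share only a number. The 2 WT CD libraries mirror each other around their mean, so their correlations cannot decide it. With the number as a replicate block, 3 members were called for HFD in WT mice (Hk3, Hif1a and Hk2), and 0 of 10 for HFD in HoipA-KO mice, as without it. Library size alone moved the median of all genes for HFD in HoipA-KO mice from -0.0145 to 0.0901. Of the paralog differences, 14 exceeded 1 on the log2 scale under each setting tried, of which 13 were shared over 12 libraries: Pdk1 to Pdk4 on CD went from -1.03 to -0.65, and Hk1 to Hk2 for HFD in WT mice turned from 0.89 to -1.01. Comparisons with WT CD rest on 2 libraries, of which replicate 2 held epididymal markers, and their sizes move with the library left out. Each library is a pool of 3 mice, so p-values measure the spread between pools.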
